A study of Catharanthus roseus with 3 samples.

Results

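In Catharanthus roseus, the Madagascar periwinkle, 113 of the 59220 assembled transcripts were found in the flower library at 10 RPKM or more and at less than 0.1 RPKM in both the leaf and the root library. RPKM counts reads per kilobase of a transcript, adjusted for the total reads of the library. These 113 transcripts, called flower-only here, were selected by their values in the same 3 libraries, so their high level in flower and low level in leaf and root are a description and no test is given. Leaf, root and flower came from mature field-grown plants of the variety Prabal, and no treatment was named. Each tissue was represented by 1 library of total RNA, so no spread between plants is known. The labels do not say at which stage the flowers were collected or how many plants were used. The files head the values as base means. They carry at most 2 decimals and sum to 464279 in flower, 452743 in leaf and 471970 in root, and were taken as RPKM. In whole tissue, fewer cells that hold a transcript and less of it per cell cannot be told apart.

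A flower combines organs that a leafy shoot and a root lack. Petals carry pigment and scent, stamens make pollen within an anther lined by a nutritive layer, the tapetum, and carpels enclose the ovules. In flowering plants, pollen and tapetum are known for transcripts that are rarely seen elsewhere in the plant. In C. roseus the shoot and root also make different terpenoid indole alkaloids. Which floral organ held a given transcript was not measured, as the flower was sequenced whole. RefSeq gene names could be matched to 0 of the 59220 identifiers, and the 113 transcripts are therefore given by identifier, without gene names or functions.

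The 113 transcripts were 1.17% of the 9641 transcripts of at least 10 RPKM in flower. Their flower values ran from 10.02 RPKM to 110.4 RPKM, with a median of 23.0 RPKM and quartiles of 14.0 and 36.5 RPKM. The 9641 transcripts together had a median of 22.4 RPKM and quartiles of 14.6 and 40.6 RPKM, and 58 of the 113 stood above that median. The middle of the flower-only set therefore lay close to that of all transcripts of this level, whereas its upper end did not. A total of 48 were between 10 and 20 RPKM, 49 between 20 and 50 RPKM, 15 between 50 and 100 RPKM and 1 above 100 RPKM. In leaf the same 113 transcripts ran from 0 to 0.09 RPKM with a median of 0, and in root from 0 to 0.09 RPKM with a median of 0.03 RPKM.

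**Figure D1:**
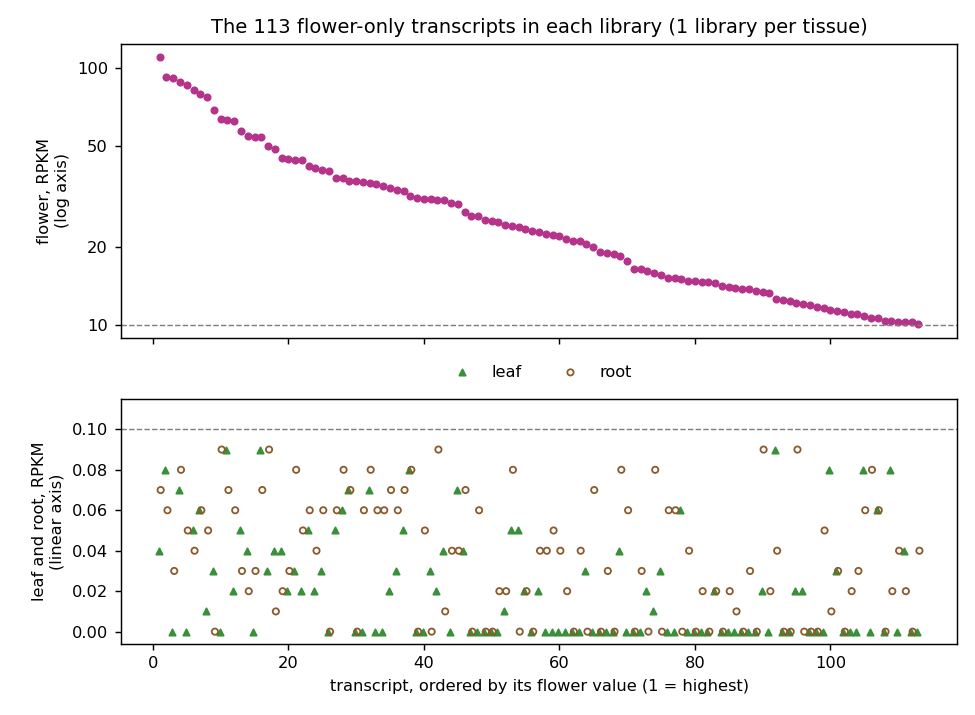
RPKM of the 113 flower-only transcripts in the flower library (upper panel, log axis) and in the leaf and root libraries (lower panel, linear axis), ordered by flower value, with 1 library per tissue and no error bars. Dashed lines mark 10 RPKM and 0.1 RPKM. Flower values fall from 110.4 to 10.02 RPKM, and zeros in leaf are more frequent on the right.

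The flower-only transcripts were of moderate rank in flower, and the minimum of 10 RPKM kept their ranks within 9641. The highest, Cr_TC10191, ranked 563 of 59220, the median rank was 4696 and the lowest was 9627. None was among the 500 highest transcripts of flower, 7 were among the 1000 highest, 18 among the 2000 highest and 60 among the 5000 highest. Over all 9641 transcripts of at least 10 RPKM the share was 1.17%. Flower-only transcripts were 1.14% of those between 10 and 20 RPKM and 1.37% of those between 20 and 50 RPKM. They were 1.28% between 50 and 100 RPKM but 0.149% at 100 RPKM or more, so only the upper end held few. The fixed ceiling in leaf and root asks for a larger ratio as the flower value rises. The rule itself thus makes the upper end harder to enter, and the ranks are no separate trait of these transcripts. Together the flower-only transcripts held 3378 RPKM, which was 0.728% of the summed flower signal. The signal was spread over many of them, since the highest transcript held 3.27% of their sum, the highest 10 held 24.9% and 28 were needed to reach 50% of it. The same transcripts summed to 2.42 RPKM in leaf and 4.04 RPKM in root.

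**Figure D2:**
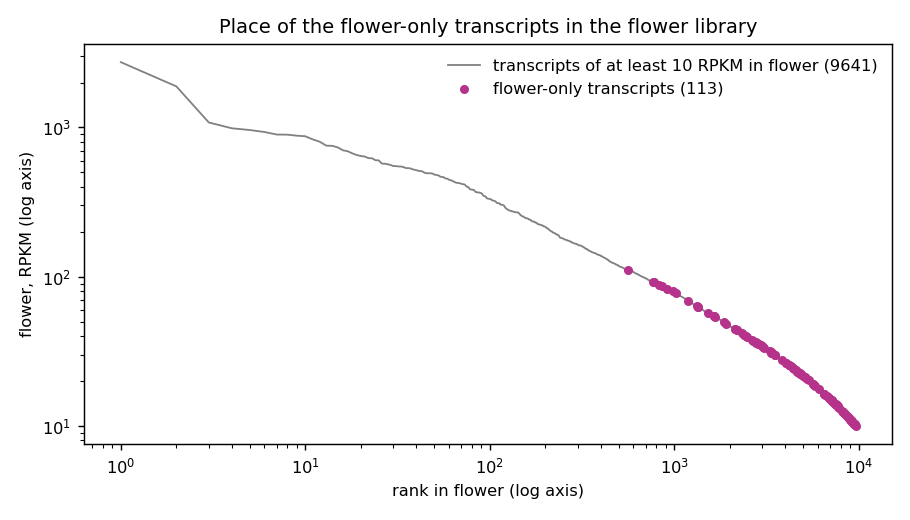
Flower level in RPKM against rank in flower, both on log axes. The line stands for the 9641 transcripts of at least 10 RPKM in flower and the points for the 113 flower-only transcripts, 1 library per tissue. The points begin at rank 563, and the upper part of the curve holds none.

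The 20 highest flower-only transcripts reached down to rank 2143 in flower. Cr_TC10191 had 110.4 RPKM in flower, against 0.04 in leaf and 0.07 in root. Cr_TC11088 had 92.15 RPKM in flower, against 0.08 in leaf and 0.06 in root. It was followed by Cr_TC50400, with 91.6 RPKM in flower, against 0 in leaf and 0.03 in root. Its flower value was 3054-fold its root value, the largest ratio of flower to the larger of leaf and root in the set. For Cr_TC12408 the values were 88.2 RPKM in flower, against 0.07 in leaf and 0.08 in root. Cr_TC50420 had 86.0 RPKM in flower, against 0 in leaf and 0.05 in root. Cr_TC29986 had 82.4 RPKM in flower, against 0.05 in leaf and 0.04 in root. In these 6 transcripts both low values lay at or below 0.08 RPKM, and leaf was listed at 0 in Cr_TC50400 and Cr_TC50420 alone.

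Cr_TC20171 had 79.7 RPKM in flower and the same value, 0.06 RPKM, in leaf and root. In Cr_TC02158 flower had 77.4 RPKM, leaf 0.01 and root 0.05, and the ratio of flower to leaf, 7738-fold, was the largest of the 56 that could be formed. It is rough, because 0.01 RPKM is the smallest value above 0 in any of the 3 files. Cr_TC22078, with 68.7 RPKM in flower and 0.03 in leaf, was the only one of the 20 listed at 0 in root. Cr_TC50365 showed the reverse, with 63.6 RPKM in flower, against 0 in leaf and 0.09 in root. Cr_TC15326 had 62.9 RPKM in flower, against 0.09 in leaf and 0.07 in root. Cr_TC09996 had 62.6 RPKM in flower, against 0.02 in leaf and 0.06 in root. No tissue besides flower was thus the higher one throughout.

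The next 4 transcripts stood between 50 and 60 RPKM in flower. Cr_TC12513 had 56.8 RPKM in flower, against 0.05 in leaf and 0.03 in root. Cr_TC41583 had 54.3 RPKM in flower, against 0.04 in leaf and 0.02 in root. Cr_TC50398 had 54.15 RPKM in flower, against 0 in leaf and 0.03 in root. Near it in flower level, but close to the ceiling in leaf, stood Cr_TC48330, with 53.75 RPKM in flower, against 0.09 in leaf and 0.07 in root. The last 4 of the 20 were under 50 RPKM. Cr_TC12017 had 49.6 RPKM in flower, against 0.03 in leaf and 0.09 in root. In Cr_TC34082 flower had 48.5 RPKM, leaf 0.04 and root 0.01, which gave the largest ratio of flower to root, 4852-fold, among the 82 that could be formed. This ratio is rough too, because it rests on the smallest value above 0 in the files. Cr_TC01542 had 44.6 RPKM in flower, against 0.04 in leaf and 0.02 in root. Cr_TC49738 had 44.4 RPKM in flower, against 0.02 in leaf and 0.03 in root. Over the 20, root was above leaf in 10, leaf above root in 9 and both were equal in 1, and leaf was at 0 in 4. The other 93 flower-only transcripts had at most 44.0 RPKM in flower, with a median of 19.02 RPKM.

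The name flower-only holds to the letter for 23 of the 113 transcripts (20.4%), which were listed at 0 in both leaf and root. The remaining 90 had a value above 0 in leaf, in root or in both. A listed 0 is not proof of absence, because a value under 0.005 RPKM is also written as 0 with 2 decimals, and the number of reads behind a value was not worked out without transcript lengths. In leaf 57 (50.4%) were listed at 0, 40 lay between 0.01 and 0.05 RPKM and 16 between 0.06 and 0.09 RPKM. In root 31 (27.4%) were listed at 0, 44 lay between 0.01 and 0.05 RPKM and 38 between 0.06 and 0.09 RPKM. Root was above leaf in 60 transcripts, leaf above root in 23, both were equal above 0 in 7 and both at 0 in 23. Over all 59220 transcripts, 24.6% were listed at 0 in leaf and 17.6% in root, so leaf held more zeros than root in the whole series as well.

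The 23 transcripts at 0 in both tissues stood lower in flower than the other 90. Their flower values ran from 10.2 to 39.6 RPKM with a median of 14.8 RPKM, against 10.02 to 110.4 RPKM and a median of 24.8 RPKM. The highest were Cr_TC11502 with 39.6 RPKM (rank 2483), Cr_TC12294 with 36.2 RPKM and Cr_TC50464 with 31.1 RPKM. Of the 23, 8 reached 20 RPKM in flower, and none of the 16 transcripts of at least 50 RPKM was among them. The lowest was Cr_TC50466, with 10.2 RPKM. No ratio can be given for these 23 transcripts.

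Where a ratio could be formed, the flower value of the 90 transcripts was between 129- and 3054-fold the larger of leaf and root, with a median of 568-fold, and 23 of them exceeded 1000-fold. The smallest ratio was that of Cr_TC07246, with 10.3 RPKM in flower, against 0.08 in leaf and 0.02 in root. The minimum of 10 RPKM and the ceiling of 0.1 RPKM fix any such ratio above 100-fold. On the log2(RPKM + 1) scale the median difference was 4.55 between flower and leaf and 4.53 between flower and root, beside medians of 0.24 and 0.40 over all 9641 transcripts. This scale understates the difference of transcripts near 0. With a pseudocount of 0.1 the medians over the 113 were 7.66 and 7.46, and with 10 they were 1.72 and 1.72, so their size is set by the pseudocount.

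Both thresholds passed through a continuous range of values. The lowest flower values inside were 10.02 RPKM in Cr_TC10052, 10.2 RPKM in Cr_TC50466 and 10.2 RPKM in Cr_TC47171, and the highest just outside were 9.50 RPKM in Cr_TC50495, 9.41 RPKM in Cr_TC07774 and 9.39 RPKM in Cr_TC50452. Within 1 RPKM of the line, 10 transcripts were inside and 9 outside. The ceiling left out higher transcripts. Cr_TC23400, with 167 RPKM in flower, against 0 in leaf and 0.1 in root, would otherwise have been the highest of the set. Cr_TC04147, with 116.6 RPKM in flower, against 0.06 in leaf and 0.1 in root, and Cr_TC50459, with 91.7 RPKM in flower, against 0 in leaf and 0.1 in root, were left out by the same step of 0.01 RPKM. On the inner side were Cr_TC50365, Cr_TC15326 and Cr_TC48330, each at 0.09 RPKM in leaf or root. In all, 8 transcripts lay at 0.09 RPKM and 10 at 0.1 RPKM in the larger of leaf and root.

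Of the transcripts of at least 10 RPKM in flower, 254 (2.63%) were below 0.1 RPKM in leaf and 182 (1.89%) below 0.1 RPKM in root. Besides the 113 that met both conditions, 141 met the one for leaf alone and 69 the one for root alone. By definition the 141 failed the condition in root and the 69 failed it in leaf. In the 141 the median root value was 0.33 RPKM, 95 were below 1 RPKM in root and 12 reached 10 RPKM there. In the 69 the median leaf value was 3.15 RPKM, 25 were below 1 RPKM in leaf and 17 reached 10 RPKM there. The highest flower value was 334 RPKM in Cr_TC46495 among the 141 and 105.3 RPKM in Cr_TC12161 among the 69.

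A fixed ceiling left out most of the abundant transcripts that a fixed fold picked. As a comparison chosen after the data were seen, transcripts of at least 10 RPKM in flower and at least 100-fold above both leaf and root were counted. There were 291, which held 8.85% of the summed flower signal. They contained all 113 flower-only transcripts, as the minimum of 10 RPKM and the ceiling of 0.1 RPKM require, and 178 more. Of the transcripts between 10 and 20 RPKM in flower, 1.14% met the ceiling and 1.21% met the fold. Near 10 RPKM the ceiling and the fold set almost the same limit, so these shares are close by construction. Of the 671 transcripts of at least 100 RPKM, 1 (0.149%) met the ceiling but 105 (15.6%) met the fold. At that level the ceiling asks for a far larger ratio than 100-fold, so its share cannot be the larger. The gap therefore describes the criteria and is no separate result about abundant transcripts. The name flower-only is kept for those that met the ceiling. In the 105 that met the fold the median was 0.16 RPKM in leaf and 0.46 RPKM in root, and root was listed at 0 in none. The highest was Cr_TC40939, with 1884 RPKM in flower, against 1.66 in leaf and 2.7 in root, followed by Cr_TC40483, with 1079 RPKM in flower, against 0.73 in leaf and 1.3 in root. All but 1 of the transcripts of at least 100 RPKM that were at least 100-fold higher in flower thus lay outside the ceiling.

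**Figure D3:**
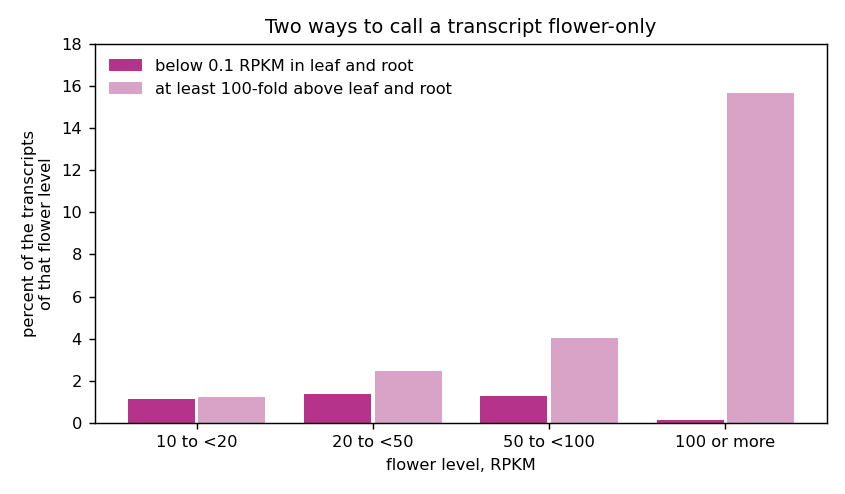
Percent of the transcripts of each flower level, in RPKM, that were below 0.1 RPKM in leaf and root (dark bars) and that were at least 100-fold higher in flower than in both (light bars), 1 library per tissue. At 100 RPKM or more the bars stand at 0.149% and 15.6%, whereas between 10 and 20 RPKM they stand at 1.14% and 1.21%. Near 10 RPKM both criteria set almost the same limit, and at higher levels the ceiling is by construction the stricter one.

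Of 13 transcripts known by identifier from the description of the alkaloid pathway or from RT-PCR primers, none was flower-only. Over all 59220 transcripts the share was 0.191%, so none would be looked for among so few. The study also chose its RT-PCR genes of the pathway for differing expression in root and leaf. Their absence from the set is therefore no result about them. A gene name is paired with 4 of the 13, T16H, DAT, T19H and actin. Of the 13, 5 reached 10 RPKM in flower, 1 was below 0.1 RPKM in leaf and 1 below 0.1 RPKM in root. The one nearest to the rule was T16H (Cr_TC35206), tabersonine 16-hydroxylase of the vindoline branch, with 17.3 RPKM in flower and 0.04 in root but 7.01 in leaf. T19H (Cr_TC04217), tabersonine 19-hydroxylase, which acts in root alkaloid synthesis, was at 0.01 RPKM in leaf, listed at 0 in flower and at 8.96 RPKM in root. DAT (Cr_TC35622), the acetyltransferase that completes vindoline, had 6.29 RPKM in flower, against 6.85 in leaf and 0.37 in root. The vindoline enzymes were thus low in the library labelled root, and T19H was low in the other 2. Actin (Cr_TC35401), the internal control of the study's RT-PCR, had 55.1 RPKM in flower and 70.7 in root but 1.17 in leaf. Why this transcript was low in leaf was not tested. The study refers to a web page for the annotation of its transcripts, which was not used here, so the flower label was not checked against floral genes.

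By the same rule with the tissues exchanged, 131 transcripts were root-only, which was 1.51% of the 8655 that reached 10 RPKM in root, and 10 were leaf-only, 0.101% of 9928. The leaf-only set was thus the smallest. The flower-only transcripts had the higher median, 23.0 RPKM, against 15.6 RPKM in root-only and 13.1 RPKM in leaf-only, and 16 of them reached 50 RPKM against 7 and 0. Root-only transcripts were more often at 0 in both other tissues, 64 of 131 against 23 of 113, and 1 of 10 in leaf-only. Of the 131, 72 lay in Cr_TC52001 to Cr_TC56000, where 84.7% of all transcripts were at 0 in leaf and 81.1% in flower. How far the difference in zeros goes with that stretch was not tested. The highest root-only transcript was Cr_TC52069, at 160.3 RPKM in root, against 0.03 in flower and 0 in leaf. The highest leaf-only transcript was Cr_TC08668, at 43.3 RPKM in leaf, against 0.08 in flower and 0.06 in root. The order of flower and root depended on the thresholds, and its gap on the scaling. With a minimum of 5 RPKM there were 190 flower-only and 408 root-only transcripts, with 20 RPKM 65 and 42, and with 50 RPKM 16 and 7. Scaled to the same upper quartile or by the median ratio, there were 109 and 178. At a ceiling of 0.05 RPKM there were 61 and 99, at 0.2 RPKM 171 and 168, and at 1 RPKM 367 and 329, while leaf-only stayed the smallest group, with 2, 20 and 106. With 1 library per tissue these counts compare libraries and carry no test.

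**Figure D4:**
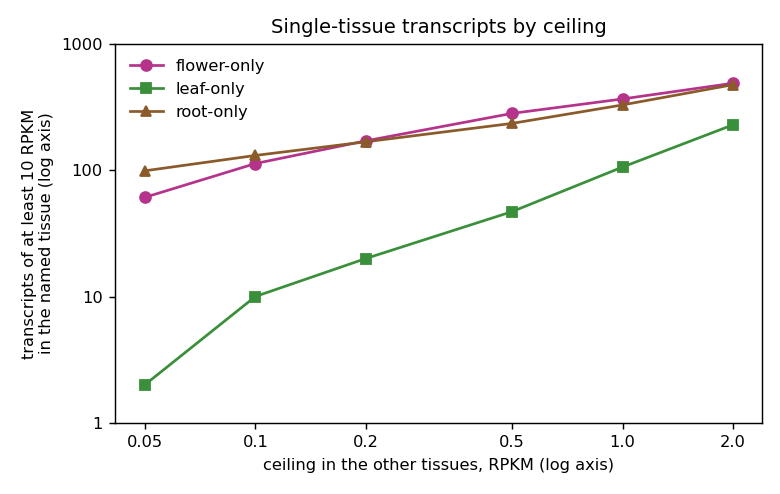
Number of transcripts of at least 10 RPKM in the named tissue and below the ceiling in both other tissues, against the ceiling in RPKM, both on log axes, 1 library per tissue. Flower-only and root-only lie close together and cross between 0.1 and 0.2 RPKM, and leaf-only lies below them at every ceiling drawn.

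The flower-only transcripts were not spread evenly over the identifier numbers, which the rule did not use. When the numbering was divided into 10 equal parts, 47 of the 113 (41.6%) fell into the ninth, Cr_TC47377 to Cr_TC53298, beside 5.49% of all transcripts of at least 10 RPKM in flower. The same part held 78 of the 131 root-only transcripts (59.5%), so this concentration is not particular to the flower-only set. A narrower stretch, chosen after the data were seen, held most of the 47 flower-only transcripts. Cr_TC50001 to Cr_TC51000 contained 37 flower-only transcripts (32.7% of the set) but 137 (1.42%) of the 9641. There 27.0% of the transcripts of at least 10 RPKM in flower were flower-only, and 0.80% elsewhere. The densest run went from Cr_TC50362 to Cr_TC50522, where 31 of 161 identifiers were flower-only and 56 reached 10 RPKM in flower. Outside this stretch, the fullest block of 1000 was Cr_TC12001 to Cr_TC13000, with 10.

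The 37 transcripts of that stretch were more often at 0 in leaf than the other 76. Of the 37, 32 (86.5%) were listed at 0 in leaf, against 25 of 76 (32.9%). In root, 14 (37.8%) and 17 (22.4%) were listed at 0. Their median in flower was 16.5 RPKM against 24.8 RPKM. The highest were Cr_TC50400 and Cr_TC50420, described above, and 4 of the 20 highest flower-only transcripts came from the stretch. A total of 11 transcripts had a flower-only neighbour by number, all within Cr_TC50362 to Cr_TC50522. As 31 of the 161 identifiers there were flower-only, neighbours are frequent at that density. The count was not compared with the number that this density alone would give. The longest run was Cr_TC50376, Cr_TC50377 and Cr_TC50378, with 13.9, 10.4 and 14.8 RPKM in flower, all at 0 in leaf, and 0.01, 0 and 0.04 RPKM in root. Whether neighbours are pieces of the same gene was not tested.

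The numbering is not independent of the tissues, however, and so the clustering is no separate evidence for these transcripts. Over all transcripts from Cr_TC33001 to Cr_TC50000, 0.388% were listed at 0 in leaf, 6.78% in root and 2.82% in flower. From Cr_TC50001 to Cr_TC51000, 48.0% were listed at 0 in leaf and 27.8% in root, but 2.4% in flower. The next block, Cr_TC51001 to Cr_TC52000, had 72.3% at 0 in leaf, 21.6% in root and 0.4% in flower. Yet none of its 80 transcripts of at least 10 RPKM in flower was flower-only, and it held 10 root-only transcripts. The flower-only count thus did not simply follow the share of zeros in leaf. From Cr_TC52001 to Cr_TC56000, 84.7% were listed at 0 in leaf and 81.1% in flower, but 0.05% in root, and this stretch held 72 of the 131 root-only transcripts and no flower-only one. How the identifiers were assigned is not given in the sources used here.

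**Figure D5:**
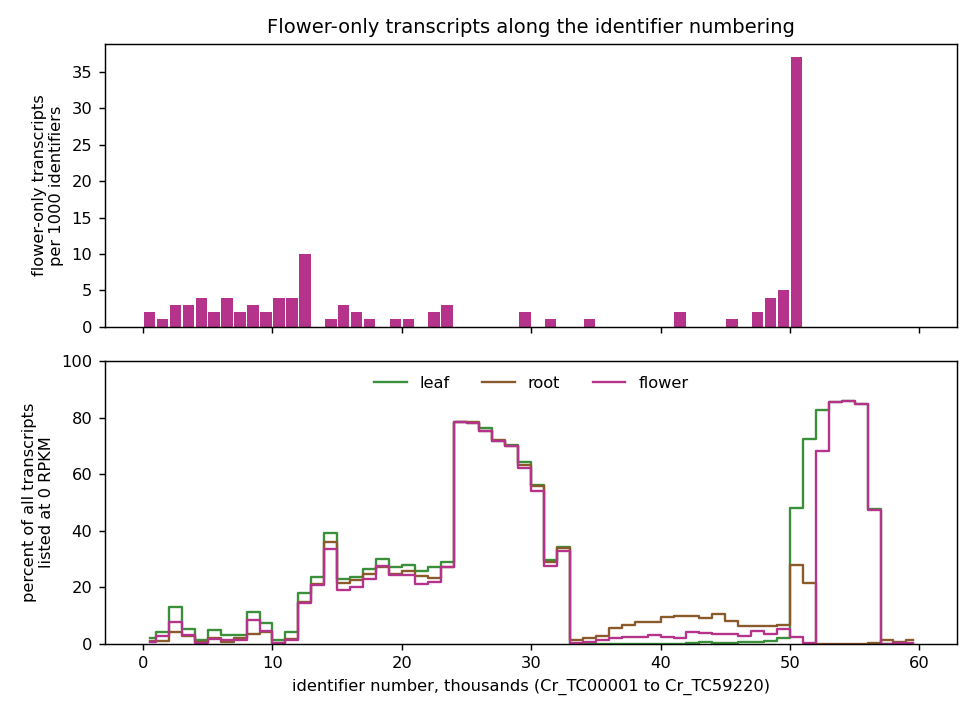
Upper panel, number of flower-only transcripts in each block of 1000 identifier numbers. Lower panel, percent of all transcripts of the block listed at 0 RPKM in leaf, root and flower, 1 library per tissue. The highest bar, 37, stands at Cr_TC50001 to Cr_TC51000, where 48.0% were at 0 in leaf and 2.4% in flower.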

How the data were processed

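RNA of 1 leaf, 1 root and 1 flower library was sequenced by the authors, who filtered reads with NGS QC Toolkit, removed duplicates, merged their de novo assembly with an earlier one and mapped reads with CLC Genomics Workbench. The study's methods describe RPKM computed by the authors from uniquely mapped reads. The files as deposited call the values base means, and they were taken as RPKM from their size and 2 decimals, which the files do not state. The submitters' processing notes name DESeq. Duplicate removal and unique mapping can lower the values of abundant transcripts and of transcripts with near-identical copies.

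Here the files were joined by identifier, and transcripts of at least 10 RPKM in flower and below 0.1 RPKM in leaf and root were selected. With 1 library per tissue no p-value is given. Without transcript lengths the reads behind each value are unknown, so no counting interval is given. The number of libraries limits the precision. Log2 ratios used a pseudocount of 1. Named transcripts were the 20 highest in flower, those beside the thresholds (3 on each side), neighbours by number, the highest leaf-only and root-only transcripts, and transcripts that the study gives by identifier. Cr_TC50001 to Cr_TC51000 and the 100-fold set, and the transcripts named for an extreme ratio, for 0 in both tissues or for passing part of the rule, were chosen after the values were seen. Members and lists were chosen with earlier results of these data known. Alternatives were minima of 5, 20 and 50 RPKM or none, ceilings of 0.05, 0.2, 0.5 and 1 RPKM, 3 scalings of the libraries and pseudocounts of 0.1 and 10. The selection code was tested on simulated data. Python 3.11.15, numpy 2.4.6, pandas 2.3.3 and matplotlib 3.10.9 were used.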

Additional observations from a re-analysis of the deposited data

How the results depend on the processing

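The number of flower-only transcripts followed the thresholds but hardly the scaling. Scaled to the same total, to the same upper quartile or by the median ratio, 120, 109 and 109 transcripts were flower-only, of which 113, 108 and 107 were among the 113, and 23 were at 0 in leaf and root each time. Root-only transcripts numbered 124, 178 and 178, and leaf-only 11, 9 and 7. With a minimum of 5 RPKM there were 190 flower-only transcripts (58 at 0 in both, median 12.1 RPKM), 29 leaf-only and 408 root-only. With 20 RPKM there were 65 (8 at 0 in both, median 35.3 RPKM), 3 and 42. With 50 RPKM there were 16 (0 at 0 in both, median 73.0 RPKM, 0.255% of the flower sum), 0 and 7. With no minimum there were 2542 (965 at 0 in both, median 0.14 RPKM, 1.15% of the sum), 1799 and 6352. With a ceiling of 0.05 RPKM there were 61 (0.306% of the sum), 2 leaf-only and 99 root-only. With 0.2 RPKM there were 171 (1.49%) and 20 leaf-only, with 0.5 RPKM 282 (3.99%), 47 leaf-only and 235 root-only, and with 1 RPKM 367 (6.21%), 106 and 329. With 100-fold in place of the ceiling, 291 transcripts met the rule for flower (8.85%, median 54.8 RPKM), 37 for leaf and 179 for root. Without Cr_TC50001 to Cr_TC51000, 76 flower-only transcripts were left, of which 10 were at 0 in both tissues. The latter pair of alternatives and those of leaf-only and root-only were chosen after seeing the data. The median log2 difference from leaf was 7.66 with a pseudocount of 0.1 and 1.72 with 10, and from root 7.46 and 1.72, while after scaling by the median ratio it was 4.53 and 4.49. No paired analysis was possible because each tissue has 1 library. For the same reason no library could be left out.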
